A study of Mus musculus with 904 samples.

Results

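The genes followed here are 9 adhesion genes of synapses and axons, the neurexins Nrxn2 and Nrxn3, the neuroligins Nlgn1, Nlgn2 and Nlgn3, and the contactin-associated proteins Cntnap2, Cntnap4, Cntnap5a and Cntnap5b. They were listed by name, with earlier results of these data known, out of a table of 32285 genes, and further members of the families were not analysed here. Their levels were compared across 6 classes of single nuclei from mouse brain, which were cut on marker genes outside the set. Neurexins are presynaptic adhesion receptors that bind neuroligins and other ligands across the synaptic cleft, and this pairing shapes how synapses form and transmit. Nlgn1 is known mainly from excitatory synapses, Nlgn2 from inhibitory synapses and Nlgn3 from synapses of either kind. Contactin-associated proteins share the neurexin-like ectodomain. Cntnap2 is best known for gathering potassium channels beside the node of Ranvier together with contactin 2, Cntnap4 acts at the output synapses of GABAergic interneurons, and less is known of Cntnap5a and Cntnap5b.

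The nuclei came from C57Bl/6J mice given an enhancer AAV of the PHP.eB capsid in young adulthood, at 5e11 vg per mouse, and were sorted for YFP 3 to 4 weeks later. The labels name the DLX2.0 enhancer, which targets forebrain GABAergic neurons, in front of a reporter that is carried into the nucleus by the histone H2B. Each of 904 nuclei gave 1 full-length SMART-Seq v4 library without molecular identifiers. Titles name 16 constructs. In 12 of them the RNA elements BORG, 3xBORG, 3xsmOPT, U7snRNAOPT, 3xU7snRNAOPT and U7snRNAOPT-3'box stand before or after SYFP2-H2B, and the others are dTomato-H2B, SYFP2-10aa-H2Bmod-BC, SYFP2-P2A-3XFLAG-H2B and the last with SIRLOIN added. No untreated nuclei were analysed here, so every group comes from mice given the virus. The titles name a YFP sort, also for dTomato-H2B, a construct whose name holds no YFP. Reporter reads were not examined, so whether each nucleus carries the virus was not tested. No label names an animal, so the nuclei of 1 construct title were summed as 1 sample. The p-values therefore cover only how these sums vary, and that variation may be technical.

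Titles and treatment labels do not match one to one. The 16 titles combine with 16 treatment labels in 67 ways, with 4 to 5 treatment labels per title. Each comparison between classes was therefore also computed with sums by treatment label. The comparisons by element position and by pool rest on titles alone. Of the 904 nuclei, 835 passed the filter of 1000 genes and 10000 reads. They held 30023 to 719419 reads assigned to genes, with a median of 260274. The median number of genes detected was 2789. Every nucleus is labelled as primary visual cortex, although the series' own design names further regions.

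Of the 835 nuclei, 626 fell into 1 class. The striatal projection class (Rgs9 of at least 20 CPM and Slc17a7 under 20, CPM being counts per 1000000 reads) held 214 nuclei. The Sst class (Sst of at least 100 CPM) held 114 and the Pvalb class (Pvalb of at least 20 CPM and Sst under 100) held 92. The excitatory class (Slc17a7 of at least 50 CPM) held 134, the Aqp4 class (at least 20 CPM) 35 and the Mog class (at least 20 CPM) 37. Some markers that the rule did not use went with the class names: pooled over nuclei, the striatal class held 920 CPM of Ppp1r1b, and the excitatory class 88.1 CPM of Tbr1. Others did not, as the striatal class held 303 CPM of Mbp and the excitatory class 346 CPM of the striatal marker Penk. Striatal markers in nuclei labelled as visual cortex go against the tissue label. The Sst and Pvalb classes held 261 and 71.5 CPM of Lhx6, read in 57% and 30.4% of nuclei, and 291 and 186 CPM of Sox6. The Pvalb class also held 110 CPM of Vip and 46.6 CPM of Adarb2, markers of other interneurons, read in 4.35% and 6.52% of its nuclei. The Aqp4 class held 1820 CPM of Gja1, a gap junction gene of astrocytes, but also 925 CPM of the oligodendrocyte gene Mbp. The Mog class held 7350 CPM of Mbp, and the Aqp4 and Mog classes each held 218 CPM of Ppp1r1b. Glial nuclei had fewer genes, with medians of 1622 in the Aqp4 class and 1144 in the Mog class against 2560 to 3481 in the neuron classes. The 92 nuclei in more than 1 class were left out. Pool S40317, 1 of 3 library pools named in the labels, held 0 striatal projection nuclei and 0 Mog nuclei, so class and pool are partly confounded.

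Of the 9 genes, 5 have promoter windows in the RefSeq table for GRCm38.p6, with 9 windows of 300 bases in all, each from 250 bases before to 50 after a start. The windows of Cntnap2 and Nlgn1 at their outermost listed starts are shown because these genes had different orders of level over the neuron classes, with Cntnap2 highest in Pvalb nuclei and Nlgn1 in striatal projection nuclei. Capitals mark the GC box GGGCGG, searched on both strands and present in 35.7% of 32851 windows of this length. The second motif searched on both strands, the cyclic AMP response half-site TGACG, is in 20.8% of windows and in 0 of the windows shown. The motifs have no overlap with each other.
Cntnap2, chr6:45059811-45060110, plus strand: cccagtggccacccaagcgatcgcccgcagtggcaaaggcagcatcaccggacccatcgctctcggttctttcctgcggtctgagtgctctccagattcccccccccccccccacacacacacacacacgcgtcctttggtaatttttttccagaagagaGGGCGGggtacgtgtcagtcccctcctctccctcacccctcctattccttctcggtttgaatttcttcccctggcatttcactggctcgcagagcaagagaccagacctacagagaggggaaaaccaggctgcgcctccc
Nlgn1, chr3:26331860-26332159, minus strand: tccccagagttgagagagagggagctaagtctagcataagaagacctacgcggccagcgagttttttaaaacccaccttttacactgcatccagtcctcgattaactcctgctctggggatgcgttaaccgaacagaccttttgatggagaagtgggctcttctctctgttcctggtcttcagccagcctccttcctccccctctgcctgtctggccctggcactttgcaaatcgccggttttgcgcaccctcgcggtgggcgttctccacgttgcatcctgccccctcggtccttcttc
The Cntnap2 window holds 1 GC box and the Nlgn1 window 0. Their GC contents are 59.7% and 55.7%, with 14 CpG sites in each. A match in a window is a description of its letters only.

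Class levels below are CPM of summed reads, given as mean ± SD over the sums of 1 class in 1 construct with at least 3 nuclei. There were 14 such sums of striatal projection nuclei, 15 of Sst, 13 of Pvalb, 14 of excitatory, 8 of Aqp4 and 6 of Mog nuclei. Reads count whole genes, so levels are compared between classes for 1 gene and not between genes. In a sum, less RNA per nucleus cannot be told apart from fewer expressing nuclei.

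**Figure D1:**
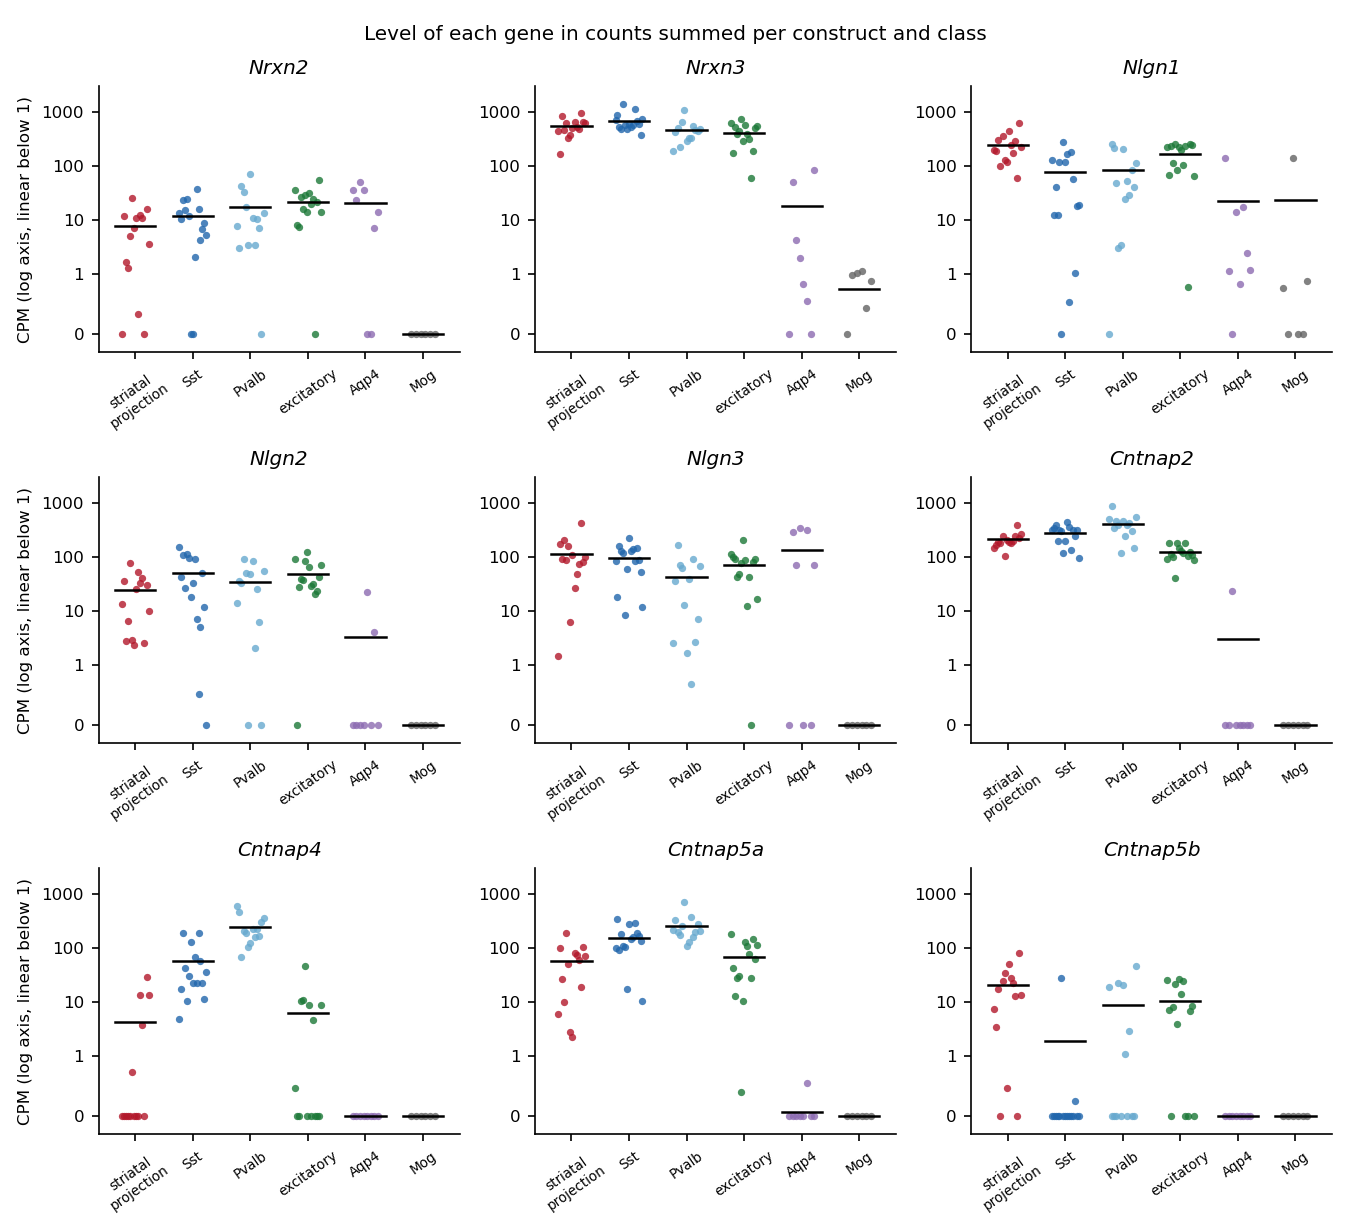
Level of each gene in CPM (log axis, linear below 1) in every sum of 1 construct and 1 class; points are sums and black lines are class means. Cntnap4 runs from 67.3 to 597 CPM in the 13 Pvalb sums and is at 0 in 9 of 14 striatal projection sums, while Nrxn3 is at 59.5 CPM or more in every neuron sum.

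Among the 6 comparisons between neuron classes, differences passed for the Cntnap genes only, and the neurexins and neuroligins passed in none. A difference passed where edgeR's quasi-likelihood F test, with construct as a block, gave a Benjamini-Hochberg adjusted p of at most 0.05 over all 13749 genes tested. Of 54 gene-by-comparison tests, 7 passed: 4 for Cntnap4, 2 for Cntnap5b and 1 for Cntnap5a. Between striatal projection and Sst nuclei 2 of the 9 genes passed, where 8.08% of all genes did. Between striatal projection and Pvalb nuclei 2 of 9 passed, against 8.88% of all genes. Between Sst and excitatory nuclei 2 of 9 passed, against 5.67%, and between Pvalb and excitatory nuclei 1 of 9, against 7.26%. No gene of the set passed between striatal projection and excitatory nuclei, where 5.03% of all genes did. There, edgeR gave an unadjusted p under 0.05 for 0 of the 9, and DESeq2 called 0. Between Sst and Pvalb nuclei, edgeR called 0 of the 9 against 1.32% of all genes, with an unadjusted p under 0.05 for 1 and 0 called by DESeq2. That 1 was Cntnap5b (-3.60 ± 1.55, adjusted p = 0.353), which passed with sums by treatment label (-6.73, adjusted p = 0.0212). These counts are small, and nothing about the set as a whole is read from them.

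Cntnap4 (chr8:112570043-112882717, GRCm38, plus strand) was highest in the Pvalb class, intermediate in the Sst class and low in the striatal projection and excitatory classes. Its lowest, median and highest levels over the Pvalb sums were 67.3, 208 and 597 CPM, with a mean of 245 ± 151. Over the Sst sums they were 4.85, 30.04 and 189 CPM, with a mean of 56.6 ± 61.3. In striatal projection nuclei 9 of 14 sums held 0 reads and the highest stood at 28.6 CPM. In excitatory nuclei 7 of 14 sums held 0 reads and the highest stood at 45.6 CPM. Every Pvalb sum therefore lay above every striatal projection and excitatory sum, whereas the Sst range overlapped with that of each other neuron class.

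Cntnap4 was lower in striatal projection than in Pvalb nuclei by a log2 fold change of -7.06 ± 1.33 (SE, adjusted p = 0.000146), in 11 of 11 constructs with both classes. It was higher in Pvalb than in excitatory nuclei by 6.35 ± 1.35 (adjusted p = 0.000904), in 12 of 12 constructs. Striatal projection nuclei were below Sst nuclei by a log2 fold change of -4.93 ± 1.24 (adjusted p = 0.00572), in 12 of 13 constructs. Sst nuclei were above excitatory nuclei by 4.21 ± 1.21 (adjusted p = 0.0214), in 11 of 13 constructs. The gap between Sst and Pvalb nuclei, a log2 fold change of -2.14 ± 1.18, did not pass (adjusted p = 0.594).

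Within the library pools the Cntnap4 differences kept their direction and none passed. Striatal projection minus Pvalb was -4.59 (adjusted p = 0.3496) in pool S40325 and -10.29 (adjusted p = 0.0581) in pool S40327, and striatal projection minus Sst was -3.04 (adjusted p = 0.412) and -6.72 (adjusted p = 0.0614). Pvalb minus excitatory was 6.11 in pool S40325, 7.83 in pool S40327 and 6.70 in pool S40317, with adjusted p of 0.359, 0.320 and 1. Sst minus excitatory was 4.55 and 4.25 in pools S40325 and S40327, with adjusted p of 0.528 and 0.594. With sums by treatment label, striatal projection minus Sst (-3.60, adjusted p = 0.122) and Sst minus excitatory (4.40, adjusted p = 0.0766) no longer passed. The latter was also lost without SYFP2-H2B-3xsmOPT-BC (adjusted p = 0.0572), without SYFP2-H2B-U7snRNAOPT-3'box-BC (0.0531) or without SYFP2-P2A-3XFLAG-H2B (0.0516), and with sums of at least 5 nuclei (0.0584).

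Counted by nucleus, 79.3% of Pvalb nuclei held a Cntnap4 read (exact 95% interval 69.6 to 87.1%), against 28.9% of Sst (20.8 to 38.2%), 14.2% of excitatory (8.76 to 21.3%) and 4.21% of striatal projection nuclei (1.94 to 7.83%). No Aqp4 nucleus of 35 and no Mog nucleus of 37 did, which allows shares of up to 8.57% and 8.11% when 3 nuclei are taken as the limit of a count of 0, with exact 95% upper limits of 10% and 9.49%. The striatal projection share is thus within what the glial counts allow. After thinning every nucleus to 30000 reads the shares were 73.9%, 25.4%, 10.4% and 3.27% in the same order of classes. Intervals cover counting error only, since nuclei of 1 construct share their source. The median depth of the neuron classes ran from 233164 to 261951 reads and that of the Aqp4 and Mog classes was 286357 and 325977 reads.

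**Figure D2:**
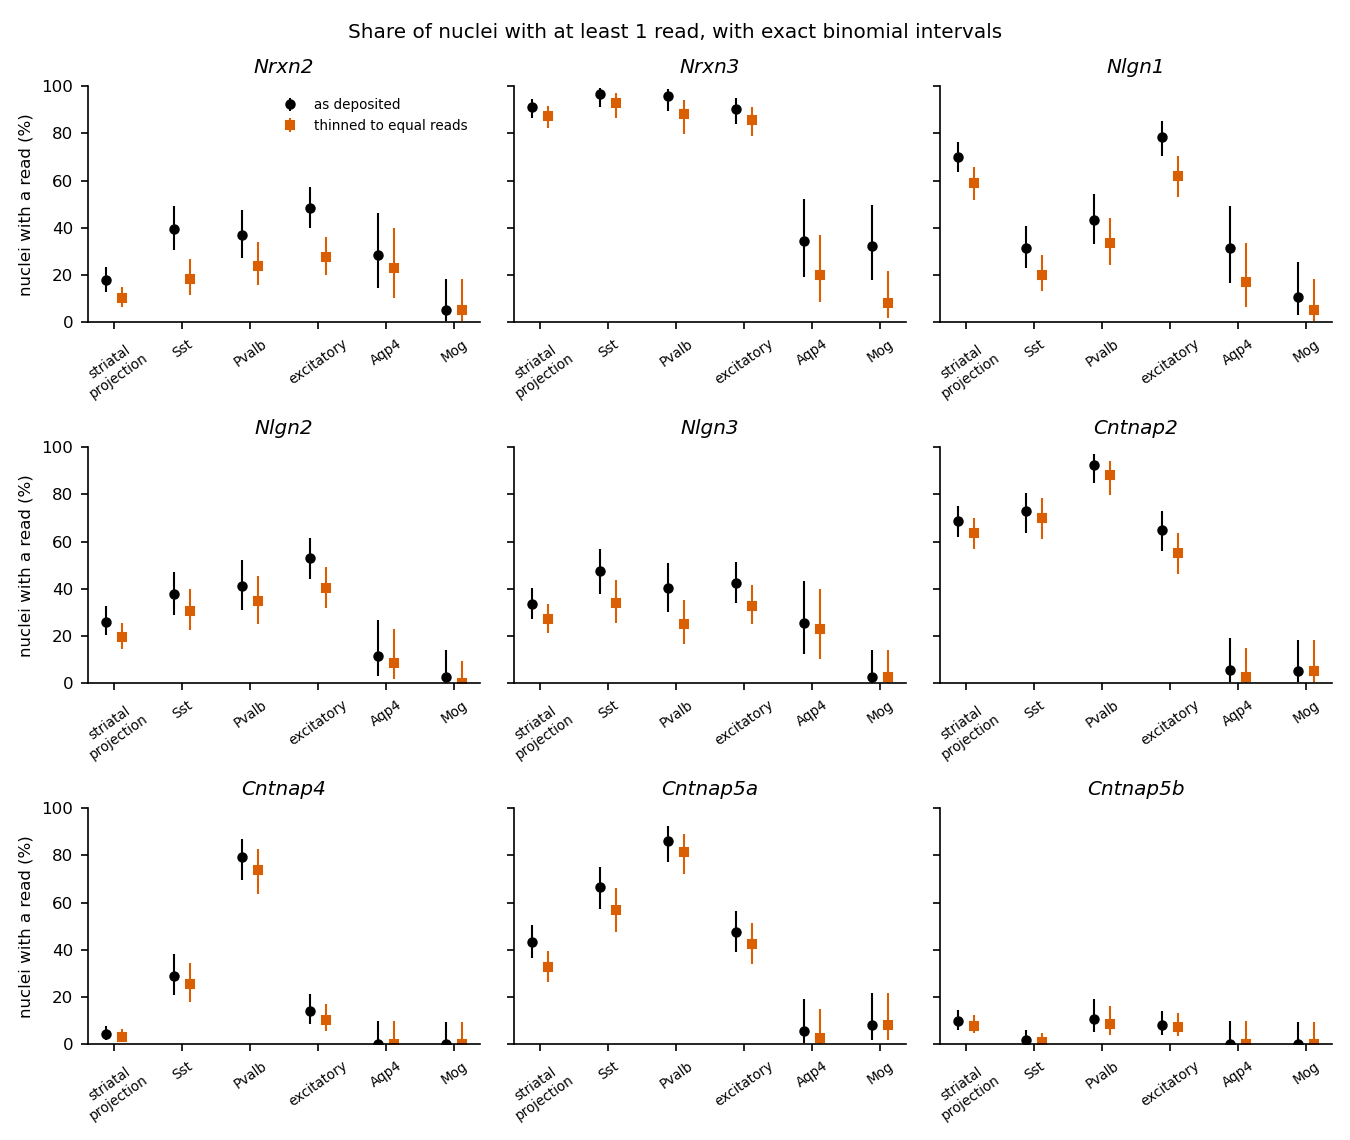
Share of nuclei in percent with at least 1 read of each gene by class, as deposited (black) and after thinning each nucleus to 30000 reads (orange); bars are exact 95% binomial intervals. Cntnap4 stands at 79.3% in Pvalb nuclei and 0% in both glial classes, and Nrxn3 at 90.3 to 96.5% in the neuron classes.

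Cntnap5a (chr1:115684756-116587323, plus strand) had the same order of interneurons first. It measured 255 ± 152 CPM in Pvalb, 155 ± 94.99 in Sst, 69.03 ± 56.7 in excitatory and 56.5 ± 52 in striatal projection nuclei. Over Pvalb sums it ran from 110 through a median of 201 to 693 CPM, and over striatal projection sums from 2.30 through 54.6 to 188 CPM, so these ranges overlapped. Striatal projection nuclei were lower than Pvalb nuclei by a log2 fold change of -2.30 ± 0.76 (adjusted p = 0.0420), in 11 of 11 constructs. This call was fragile. It held on leaving out 3xU7snRNAOPT-SYFP2-H2B-BC, SYFP2-10aa-H2Bmod-BC, SYFP2-H2B-3xU7snRNAOPT-BC, SYFP2-H2B-U7snRNAOPT-BC or U7snRNAOPT-SYFP2-H2B-BC, and was lost on leaving out any 1 of the other 11 constructs, with adjusted p of 0.0591 to 0.121. It was also lost within pools S40325 (-0.69, adjusted p = 1) and S40327 (-3.66, adjusted p = 0.606), with sums by treatment label (-1.25, adjusted p = 0.343), without the filter on low counts (adjusted p = 0.182), with sums of at least 5 nuclei (0.149) and with doubled class thresholds (0.0588). Against Sst nuclei the difference was -1.60 ± 0.72 and against excitatory nuclei Pvalb nuclei stood 1.68 ± 0.75 higher, and neither passed with edgeR (adjusted p = 0.186 and 0.196). DESeq2 gave adjusted p of 0.0132 and 0.0102 for these.

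Cntnap5b (chr1:99772765-100485942, plus strand) showed another order, with the lowest neuronal level in Sst nuclei. It measured 21.1 ± 22.7 CPM in striatal projection, 10.5 ± 10.1 in excitatory, 8.71 ± 14.5 in Pvalb and 1.88 ± 7.20 in Sst nuclei. Of the Sst sums, 13 of 15 held 0 reads, and 1 nucleus gave 96.3% of the 27 reads of the class. Of the striatal projection sums, 2 of 14 held 0 reads and the highest stood at 81.5 CPM. The ranges overlapped. Striatal projection nuclei were above Sst nuclei by a log2 fold change of 7.29 ± 1.65 (adjusted p = 0.00172), in 11 of 13 constructs, and Sst nuclei were below excitatory nuclei by -5.83 ± 1.46 (adjusted p = 0.00714), in 8 of 13 constructs. Without the construct as a block these were 3.88 (adjusted p = 0.0629) and -2.81 (adjusted p = 0.333), and neither passed. The size of both changes thus depends on the fit, and the means over sums lie closer together than the blocked fit gives. With nuclei thinned to 30000 reads, neither comparison had a value for Cntnap5b. Within pool S40325 the 2 changes were 8.31 and 0.77, the second with its sign turned, and within pool S40327 they were 2.80 and -3.70, with adjusted p of 0.288, 1, 0.485 and 0.581. Few nuclei held a read, 9.81% of striatal projection nuclei (exact 95% interval 6.18 to 14.6%) and 1.75% of Sst nuclei (0.213 to 6.19%), and these intervals overlap narrowly. Cntnap5a and Cntnap5b are related in sequence, and how reads that map to more than 1 gene were counted is not given in the sources used here.

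Cntnap2 (chr6:45059357-47304213, plus strand) followed the interneuron order at smaller differences. Its lowest, median and highest levels were 120, 395 and 863 CPM in Pvalb sums, 94.3, 309 and 448 in Sst, 103, 193 and 387 in striatal projection, and 41.5, 117 and 184 in excitatory sums. Means were 399 ± 189, 272 ± 103, 210 ± 66.1 and 123 ± 40.1 CPM. All neighbouring classes in this order overlapped. Pvalb nuclei were above excitatory nuclei by a log2 fold change of 1.34 ± 0.58 in 11 of 12 constructs, and this did not pass (adjusted p = 0.180). It passed with DESeq2 (adjusted p = 0.00251), with sums of at least 5 nuclei (0.0127) and with nuclei of at least 2000 genes (0.00137). A read was found in 92.4% of Pvalb nuclei (84.9 to 96.9%) and 64.9% of excitatory nuclei (56.2 to 72.96%).

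**Figure D3:**
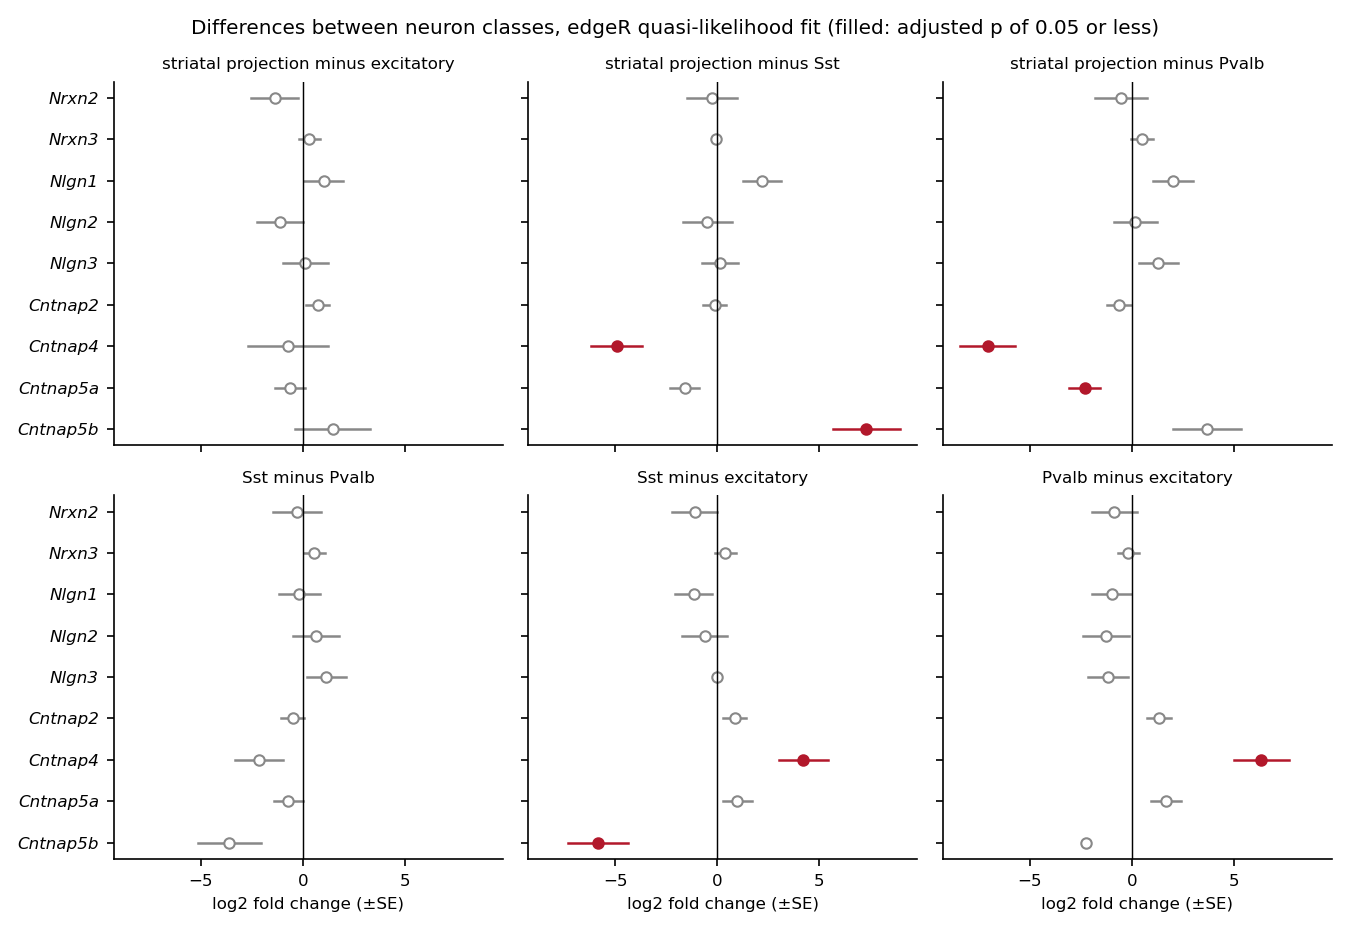
Log2 fold change ± SE of each gene in the 6 comparisons between neuron classes. Filled points passed at an adjusted p of 0.05. Points without a bar have no SE because the change is near 0 or the SE did not match the p of the test. Filled points belong to Cntnap4 (4 comparisons), Cntnap5b (2) and Cntnap5a (1).

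Across pools S40325 and S40327, Nlgn1 kept its order of neuron classes and Cntnap4 kept Pvalb first and Sst second. Over all nuclei of a class and pool, Cntnap4 measured 251 and 224 CPM in Pvalb, 84.8 and 34.7 in Sst, 3.86 and 5.98 in excitatory and 10.2 and 1.54 in striatal projection nuclei of pools S40325 and S40327, so excitatory and striatal projection nuclei changed order. Nlgn1 measured 256 and 235 CPM in striatal projection, 151 and 195 in excitatory, 54.9 and 89.7 in Pvalb and 40.99 and 68.8 in Sst nuclei. For Cntnap5a, Pvalb nuclei were above Sst nuclei in pool S40325 (210 against 140 CPM) and below them in pool S40327 (195 against 212 CPM). A direct test of pool within a class could be made for Sst nuclei alone, with 6 constructs, since 3, 1 and 1 constructs had enough striatal projection, Pvalb and excitatory nuclei in both pools against a required 4. In Sst nuclei 6 of the 9 genes passed the low-count filter and edgeR called 0 of them, with an unadjusted p under 0.05 for 0. Over the whole table it called none of the 6467 genes tested (0%) while 130 had an unadjusted p under 0.05, and DESeq2 called 279, among them Cntnap4, lower in pool S40327 (-6.56, adjusted p = 0.00803 with DESeq2 and 1 with edgeR).

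**Figure D4:**
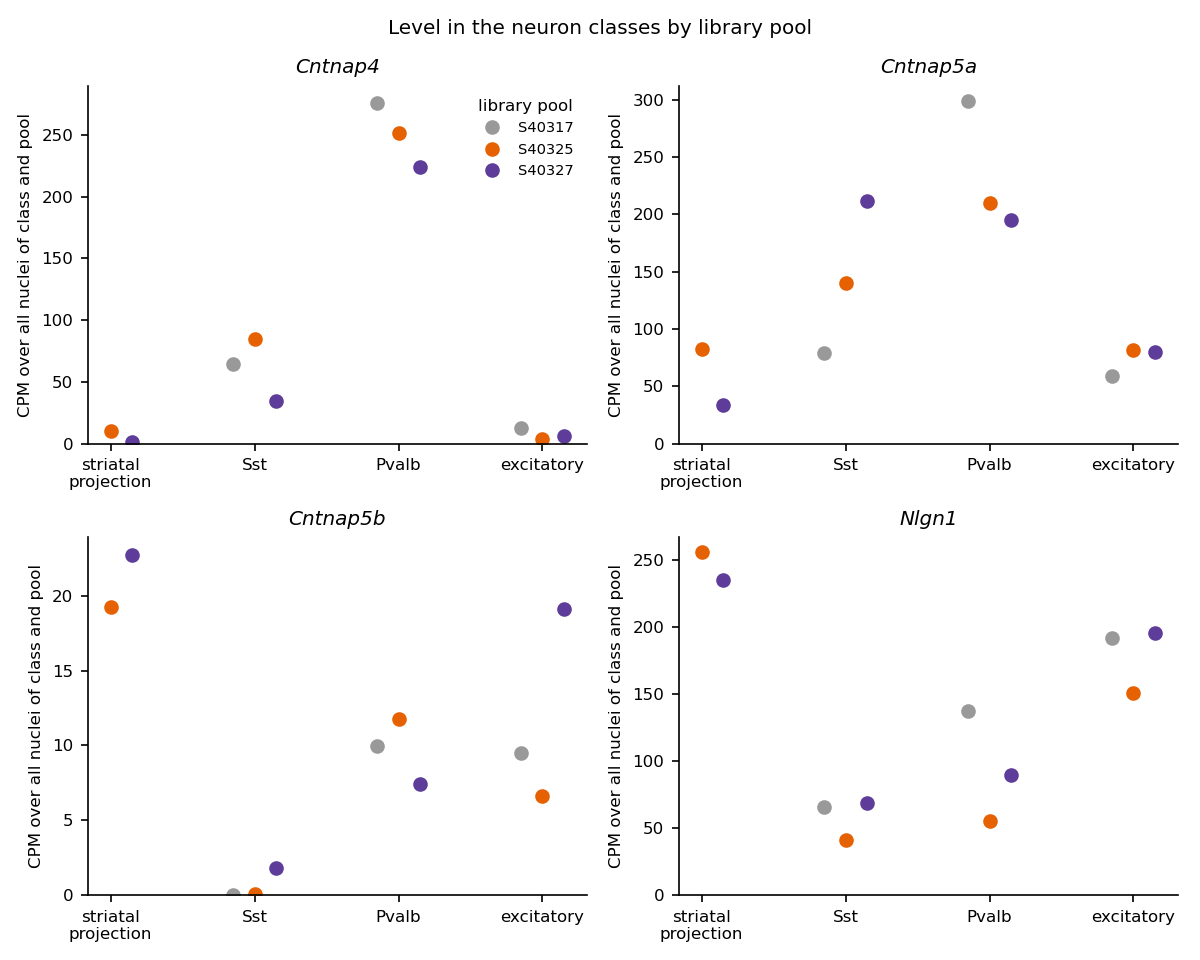
Level in CPM of 4 genes over all nuclei of each neuron class, by library pool (colour); pool S40317 held 0 striatal projection nuclei. Cntnap4 is highest in Pvalb nuclei in all 3 pools, at 224 to 276 CPM.

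No difference of a neuroligin between neuron classes passed, and the order of classes of Nlgn1 was that of Cntnap5b. Nlgn1 (chr3:25426215-26332460, minus strand), the neuroligin of excitatory synapses, measured 246 ± 151 CPM in striatal projection, 165 ± 88.03 in excitatory, 82.7 ± 88.4 in Pvalb and 76.6 ± 83.9 in Sst nuclei. It ran from 60.8 through a median of 209 to 620 CPM over striatal projection sums, and from 0 through 41.4 to 276 CPM over Sst sums, so the ranges overlapped. Striatal projection nuclei stood above Sst nuclei by a log2 fold change of 2.18 ± 0.94 (adjusted p = 0.164), in 11 of 13 constructs, and above Pvalb nuclei by 2.02 ± 0.99 (adjusted p = 0.240), in 9 of 11. The first passed with sums of at least 5 nuclei (2.63, adjusted p = 0.0349), nuclei of at least 2000 genes (2.30, 0.0337), thinned reads (2.21, 0.0383) and sums by treatment label (3.90, 0.00485), where the second passed too (3.05, 0.0332). By nucleus, 70.1% of striatal projection nuclei (63.5 to 76.1%) and 78.4% of excitatory nuclei (70.4 to 85%) held a read, against 31.6% of Sst nuclei (23.2 to 40.9%) and 43.5% of Pvalb nuclei (33.2 to 54.2%).

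Nlgn2 (chr11:69823122-69837784, minus strand), the neuroligin of inhibitory synapses, measured 50.0 ± 48.6 CPM in Sst, 49.2 ± 33.6 in excitatory, 34.4 ± 30.9 in Pvalb and 24.2 ± 22.9 in striatal projection nuclei. Nlgn3 (chrX:101299168-101325963, plus strand) measured 113 ± 108 CPM in striatal projection, 97.5 ± 61.4 in Sst, 72.4 ± 52.9 in excitatory and 43.2 ± 48.6 in Pvalb nuclei. For both, every neighbouring pair of neuron classes in the order lay within 1 SD and overlapped in range. Their levels spread widely within a class: Nlgn3 ran from 1.51 to 424 CPM over striatal projection sums and from 0.68 to 166 over Pvalb sums.

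Among the neurexins, Nrxn3 (chr12:88722876-90334935, plus strand) was read in most neuronal nuclei, in 91.1% of striatal projection (86.5 to 94.6%), 96.5% of Sst (91.3 to 99.04%), 95.7% of Pvalb (89.2 to 98.8%) and 90.3% of excitatory nuclei (83.98 to 94.7%). It measured 684 ± 271 CPM in Sst, 543 ± 199 in striatal projection, 455 ± 223 in Pvalb and 413 ± 192 in excitatory nuclei. Its lowest, median and highest Sst sums were 376, 590 and 1415 CPM, and its excitatory sums 59.5, 422 and 746 CPM. Neighbouring classes lay within 1 SD. The log2 fold changes between neuron classes ran from -0.18 to 0.57, and none passed. Nrxn2 (chr19:6418731-6544169, plus strand) measured 21.8 ± 13.9 CPM in excitatory, 17.2 ± 20.1 in Pvalb, 12.1 ± 10.4 in Sst and 7.68 ± 7.51 in striatal projection nuclei, and none of its differences between neuron classes passed. Its share of nuclei with a read was 48.5% in excitatory (39.8 to 57.3%) and 17.8% in striatal projection nuclei (12.9 to 23.5%), and 27.6% and 10.3% after thinning. The table counts 2 genes on the opposite strand over Nrxn2 and 1 over Cntnap4. Over Nlgn1 it counts 2 genes, of which only 1 is on the opposite strand. Whether reads were counted by strand is not given in the sources used here, so reads of these overlapping genes may not be separate.

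Against glia, most of the genes were higher in neurons, as were many genes of the table. The median log2 fold change over all genes was 2.92 for neurons minus Aqp4 and 2.96 for neurons minus Mog, and the changes below are to be read against these. Over the mean of the 4 neuron classes, 7 of the 9 genes were higher than in the Aqp4 class, where 39.4% of all genes passed in either direction and 35.2% as higher in neurons. Nrxn2 and Nlgn3 did not pass. Against the Mog class 8 of 9 were higher, where 33.3% of all genes passed and 30.3% as higher, and Nlgn1 did not pass. The glial sums rest on 31 nuclei in each class and on fewer detected genes per nucleus, and the part of this in the differences was not tested. Nrxn3 was above the Aqp4 class by a log2 fold change of 6.5 ± 0.85 (adjusted p = 5.63e-09) in 8 of 8 constructs, with 17.9 ± 32.2 CPM over the Aqp4 sums. It measured 0.755 ± 0.448 CPM over the Mog sums, with a log2 fold change of 9.99 ± 1.10 (adjusted p = 2.39e-11) in 6 of 6 constructs. Cntnap2 had reads in 1 of 8 Aqp4 sums, at 23.98 CPM, and differed by 8.51 ± 1.03 (adjusted p = 6.52e-10). Nlgn2 differed from the Aqp4 class by 5.73 ± 1.62 (adjusted p = 0.00398). Within pool S40327, Nrxn3, Cntnap2 and Cntnap5a still passed against both glial classes. There Cntnap4 passed against neither (adjusted p = 1 for both), nor did Cntnap5b (0.133 against Aqp4 and 0.0614 against Mog), and Nlgn2 passed against the Mog class only (0.00969, and 0.227 against Aqp4). Against the Mog class, Cntnap5b was also lost with sums of at least 5 nuclei (adjusted p = 0.127).

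Where a glial class held 0 reads over its sums, only a lower bound can be given, with the class set to 3 reads. Such a bound treats reads as independent, although reads of a gene can come from few nuclei, so it covers counting error alone. Cntnap4 was at least 179-fold higher over the pooled neuron sums than over the Aqp4 sums and at least 194-fold higher than over the Mog sums. For Cntnap5b these bounds were 39.8-fold and 43.3-fold. The pooled Cntnap4 value of 56.2 CPM covers means of 245 CPM in Pvalb and 4.28 CPM in striatal projection sums, so it gives no bound for each class. Cntnap5b was read in 1.75 to 10.9% of nuclei by neuron class. The glial counts of 0 allow shares up to 10% (Aqp4) and 9.49% (Mog), so by nucleus no such bound follows. Against the Mog sums, Cntnap2 was at least 844-fold higher, Cntnap5a at least 396-fold, Nlgn3 at least 271-fold, Nlgn2 at least 133-fold and Nrxn2 at least 49.5-fold. Cntnap5a had 1 read over the Aqp4 sums, a ratio of 1094 with a counting interval of 196 to 43210, but 15 more reads in the 4 Aqp4 nuclei outside the sums, which bring the class to 1.51 CPM. These bounds hold for the sums alone and not for the 6 Mog nuclei outside them, whose constructs had under 3 such nuclei. They held 447 reads of Cntnap5a, 355 of Nrxn3, 90 of Nlgn1, 58 of Nrxn2, 53 of Cntnap2, 39 of Nlgn3 and 1 of Nlgn2. Over all 37 Mog nuclei Cntnap5a stood at 36.2 CPM, Nrxn3 at 29.4, Nrxn2 at 4.70, Cntnap2 at 4.29 and Nlgn3 at 3.16 CPM, and 1 nucleus gave 89.3% of the class's Cntnap5a reads.

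Within glia, Nlgn3 and Nrxn2 were the genes that did not pass between neurons and the Aqp4 class. Nlgn3 measured 70.6, 71.95, 294, 311 and 347 CPM in 5 of the Aqp4 sums and 0 in 3, with a mean of 137 ± 153, and 0 in all 6 Mog sums. Nrxn2 measured 7.28, 14.1, 23.3, 35.9, 35.97 and 49.7 CPM in 6 Aqp4 sums and 0 in 2, and 0 in all 6 Mog sums. The Aqp4 levels of these genes overlapped with those of every neuron class. The neuron mean minus the Aqp4 class gave 0.56 ± 1.02 for Nlgn3 (95% interval -1.43 to 2.55) and 0.24 ± 1.26 for Nrxn2 (-2.23 to 2.71). These fitted signs run against the means over sums, which were 81.6 CPM in neurons and 137 in Aqp4 nuclei for Nlgn3 and 14.7 and 20.8 CPM for Nrxn2, so no direction is given. Only 9 of 35 Aqp4 nuclei held a Nlgn3 read, and 10 held a Nrxn2, 12 a Nrxn3 and 11 a Nlgn1 read. Between the Aqp4 and Mog classes 4 of the 9 genes were higher in Aqp4 nuclei, where 13.4% of all genes passed and 7.46% as higher: Nlgn3 (adjusted p = 0.000227), Nrxn2 (0.00315), Nrxn3 (0.00659) and Cntnap2 (0.0475). Of the 5 constructs with sums of both glial classes, Nrxn2 was higher in Aqp4 nuclei in 4, Nlgn3 in 2 with ties at 0 in the rest, Nrxn3 in 2 and lower in 2, and Cntnap2 in 0. Over all nuclei of the classes, those outside the sums included, Nrxn3 stood at 28.6 CPM in Aqp4 and 29.4 in Mog nuclei and Cntnap2 at 3.78 and 4.29 CPM, so neither was higher in the Aqp4 class there. Within pool S40327 Nlgn3 still passed (adjusted p = 0.0282), whereas Nrxn2 (0.0570), Nrxn3 (0.0653) and Cntnap2 (1) did not. The Cntnap2 call rested on the single Aqp4 sum of BORG-SYFP2-H2B-BC, without which the adjusted p was 1. It held on leaving out 3xBORG-SYFP2-H2B-BC, SYFP2-10aa-H2Bmod-BC or SYFP2-H2B-3xsmOPT-BC and was lost, at an adjusted p of 0.0521 or more, on leaving out any 1 of the other 13 constructs. It was lost too without the filter on low counts (0.192), with doubled class thresholds (0.0556) and with thinned reads (0.438). Nrxn3 was lost without 3xU7snRNAOPT-SYFP2-H2B-BC (adjusted p = 0.0908) or SYFP2-H2B-U7snRNAOPT-BC (0.114), the Aqp4 sums with the most Nrxn3 at 51.2 and 84.7 CPM, and with sums by treatment label (0.174).

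Nlgn1 in glia came from few sums. It stood at 143 CPM in the Aqp4 sum of 3xBORG-SYFP2-H2B-BC and between 0 and 17.5 CPM in the other 7, and at 139 CPM in the Mog sum of SYFP2-H2B-3xU7snRNAOPT-BC and between 0 and 0.89 CPM in the other 5. Neurons were above the Aqp4 class by a log2 fold change of 3.91 ± 1.41 (adjusted p = 0.0224), in 7 of 8 constructs. This call was lost within pool S40327 (3.97, adjusted p = 0.187), and on leaving out 3xU7snRNAOPT-SYFP2-H2B-BC (adjusted p = 0.0574), BORG-SYFP2-H2B-BC (0.0695), SYFP2-H2B-BORG-BC (0.0515) or SYFP2-H2B-U7snRNAOPT-BC (0.0536). Against the Mog class the difference was 5.43 ± 2.54 (adjusted p = 0.0873), and it passed on leaving out SYFP2-H2B-3xU7snRNAOPT-BC (9.42, adjusted p = 4.34e-05). It passed too with DESeq2 (5.02, adjusted p = 1.69e-06), without the construct as a block (2.76, 0.0448), with sums by treatment label (6.05, 0.00379) and with thinned reads (3.35, 0.0467).

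The known partners of these genes were described from 3 lists. Of 16 further ligands of neurexins, 13 were tested. None was higher and 4 were lower in striatal projection than in excitatory nuclei, where 5.03% of all genes passed in either direction. The median log2 fold change of the 13 was -0.88 against -0.39 over all genes. Among the 4 were C1ql3 and Cbln2, secreted synaptic organisers, at means of 0.47 and 0.45 CPM in striatal projection and 56.2 and 38.7 CPM in excitatory nuclei (adjusted p = 0.000426 and 0.00933). Nxph1, a secreted neurexophilin that binds neurexins, measured 469 CPM in Sst and 457 in Pvalb nuclei against 3.58 in striatal projection and 9.65 in excitatory nuclei. It passed in all 4 of these comparisons (adjusted p of 3.11e-09, 1.11e-08, 1.11e-06 and 1.34e-06). In Sst against Pvalb nuclei 1 ligand was higher and 0 lower, where 1.32% of all genes passed in either direction. This ligand was Cbln4, a secreted organiser of the cerebellin family, which measured 87.1 CPM in Sst sums and 0 in all 13 Pvalb sums (adjusted p = 0.00127).

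Of 15 neuroligin regulators and scaffolds, all 15 were tested, and Shank1, Apba2 and Mdga1 were those that passed between neuron classes. In these 6 comparisons 1.32% to 8.88% of all genes passed. Shank1, a scaffold of excitatory postsynapses, was lower in striatal projection nuclei, at 40.97 CPM against 222 in Sst, 318 in Pvalb and 359 in excitatory nuclei (adjusted p = 0.0210, 0.0115 and 0.00310). Apba2, an adaptor of neurexin complexes, was lower in striatal projection than in excitatory nuclei (17.7 against 102 CPM, adjusted p = 0.0411), and Mdga1, which binds neuroligins and blocks their pairing, was lower in Pvalb than in excitatory nuclei (1.05 against 11.3 CPM, adjusted p = 0.0116). Of 11 contactins and juxtaparanodal partners, 0 passed between neuron classes in either direction, with medians of -0.38 to 0.06. The medians over all genes in these comparisons ran from -0.56 to 0.15. In the fit of neurons against the Aqp4 class 10 of these 11 were higher, where 35.2% of all genes were, and against the Mog class 6 were, where 30.3% of all genes were. Between glial classes 13.4% of all genes passed in either direction. Of the 11 genes, 2 were higher in Aqp4 nuclei, where 7.46% of all genes were, and 4 in Mog nuclei. Among the latter, Epb41l3, a membrane skeleton protein of the paranode, measured 540 CPM in Mog sums and 0 in all 8 Aqp4 sums, and Cntn2, the contactin that pairs with Cntnap2, 245 CPM in Mog sums and 0 in all 8 Aqp4 sums (adjusted p = 1.93e-12 and 2.32e-05).

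Likeness of pattern was measured by Pearson's r of log2(CPM + 1) over 70 sums of construct and class, among 8457 genes of at least 20 CPM on average, as a description only. The sums share constructs, pools and classes, and neurons and glia are pooled in r. Cntnap2 was most like Scn1a (r = 0.96), Meg3 (0.96) and Rian (0.95), and Nrxn3 most like B830012L14Rik (0.93), Rian (0.93) and Meg3 (0.92). Scn1a was among the 3 genes most like Cntnap5a (0.86). Cntnap4 was most like Kcnip1 (0.85), Nxph1 (0.83) and Pvalb (0.83), the last being the gene that cut its highest class. Nlgn1 reached 0.72 with Mrtfb, Nlgn2 0.70 with Rp9, Nlgn3 0.67 with Negr1, Cntnap5b 0.61 with Slit3 and Nrxn2 0.60 with Mical2. Within the set, r was 0.90 between Nrxn3 and Cntnap2 and 0.84 between Cntnap2 and Cntnap5a, and 0.06 between Nlgn1 and Cntnap4.

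The study's constructs differ in whether an RNA element stands before or after SYFP2-H2B, and none of the 9 genes passed by this position over 6 elements. Position was taken from the titles alone, which do not match the treatment labels one to one. Over all 13620 genes tested edgeR made 0 calls (0%), whereas 302 had an unadjusted p under 0.05 and DESeq2 called 83. Of the 9 genes, 1 had an unadjusted p under 0.05, and DESeq2 called 0. This was Cntnap5a, which did not pass and was lower with the element after in 6 of 6 elements, at 62.5 ± 19.2 against 127 ± 49.7 CPM over all kept nuclei of a construct. It measured 118 CPM before and 65.4 after for 3xBORG, 51.6 and 38.3 for 3xU7snRNAOPT, and 207 and 74.01 for 3xsmOPT. For BORG it measured 126 and 40.6, for U7snRNAOPT 119 and 86.7, and for U7snRNAOPT-3'box 138 and 69.97 CPM. The log2 fold change was -0.92 ± 0.26 (unadjusted p = 0.00508, adjusted p = 1). Sst nuclei were 20% of nuclei before and 11.97% after, Pvalb nuclei 10.8% on either side, and striatal projection nuclei 13.8% and 16.99%. Within Sst and Pvalb nuclei alone the change was 0.01, within striatal projection nuclei -0.86 and within excitatory nuclei -1.21, each with an adjusted p of 1. Cntnap2 measured 248 ± 82.7 before and 167 ± 66 after, and was higher after in 2 of 6 elements.

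**Figure D5:**
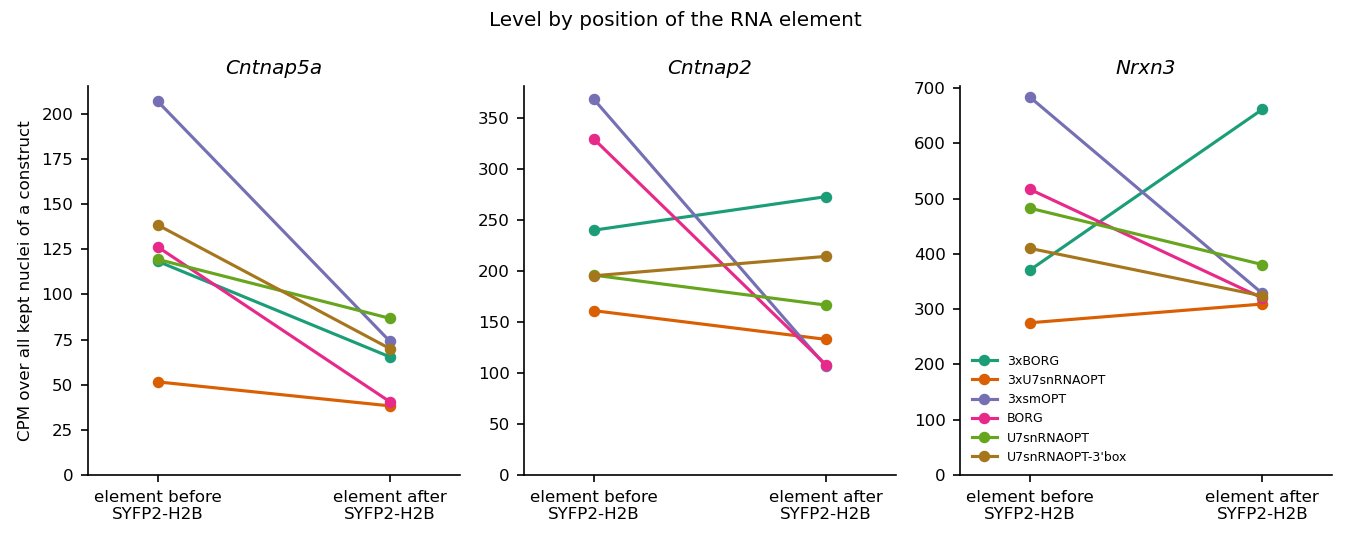
Level in CPM over all kept nuclei of a construct with the RNA element before or after SYFP2-H2B in the title, with 1 line per element. Cntnap5a is lower with the element after for all 6 elements, while Cntnap2 and Nrxn3 go either way.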

How the data were processed

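The unit is the count: the authors deposited raw read counts per gene for each nucleus, and per the submitters' processing notes the aligner was STAR 2.7.2a and the build mm10. The counting step and its annotation are not given in the sources used here. Of 2501 columns in the table, 904 were matched to labelled nuclei and 1597 were not used. Gene IDs were named from GENCODE M21 (32235 matched, 50 did not).

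Nuclei with at least 1000 genes and 10000 reads were classed on counts per 1000000 reads. Counts were summed per construct title and class (at least 3 nuclei) and tested with edgeR 4.0.16 (R 4.3.3), quasi-likelihood F test, all 6 classes in 1 fit with the construct as a block, filterByExpr, TMM scaling and Benjamini-Hochberg adjustment at 0.05. The dispersion trend of the class fits was taken over classes alone. The SE is the absolute log2 fold change divided by the square root of F. It was left out where the change was near 0 or where the SE did not match the p of the test. The latter held for Cntnap5b in Pvalb minus excitatory nuclei, at a log2 fold change of -2.23. The scripts were tested on simulated data. Element position was tested over summed constructs with the element as a block, and pools within Sst nuclei with the construct as a block. Titles number the nuclei from 1 within each construct, and these numbers name nuclei and pair nothing. Blocks are construct titles or elements shared by the groups compared.

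The 9 genes and the partner lists were chosen with earlier results of these data known. Named partner genes are at most the 2 of smallest p in each list and comparison, and genes alike in pattern are the 3 of highest r; some genes these rules name are not reported here. Alternatives were RLE scaling, no low-count filter, DESeq2 1.42.0, sums of at least 5 nuclei, nuclei of at least 2000 genes, doubled class thresholds, sums by treatment label, no block, nuclei thinned to 30000 reads, single pools and leaving out each construct. Sums by treatment label were made for comparisons between classes only. Intervals and floors of 3 reads cover counting error only, since reads carry no molecular identifiers.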

Additional observations from a re-analysis of the deposited data

Results flagged for a closer look

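In groups of 4 to 10 samples, 27 were tested for a sample far from the rest and 9 had one. The usual chance rate of about 1 in 20 assumes normally distributed values. Many glial sums are at 0, so the count of flags cannot be set against that rate. Where all other sums are 0, any sum with a read is flagged. In the Aqp4 class these were Nlgn1 in 3xBORG-SYFP2-H2B-BC (143 CPM, others 0 to 17.5), Nlgn2 in SYFP2-H2B-3xU7snRNAOPT-BC (22.4 CPM, others 0 to 4.05), Cntnap2 in BORG-SYFP2-H2B-BC (23.98 CPM, others 0) and Cntnap5a in SYFP2-H2B-3xsmOPT-BC (0.547 CPM, others 0). The Cntnap5a value is 1 read. In the Mog class the flag was Nlgn1 in SYFP2-H2B-3xU7snRNAOPT-BC (139 CPM, others 0 to 0.887). Over all nuclei of a construct with the element after SYFP2-H2B, Nrxn2 (26.9 CPM, others 9.96 to 15.8) and Nrxn3 (662 CPM, others 309 to 381) stood apart for 3xBORG, and Nlgn3 (178 CPM, others 43.6 to 85.99) for 3xsmOPT. With the element before, Cntnap5b stood apart for U7snRNAOPT (18.8 CPM, others 0.962 to 6.36).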

How the results depend on the processing

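Of the 26 calls among the 9 genes, RLE scaling and DESeq2 ended none. With thinned reads, only 5 of the 7 calls between neuron classes and 15 of the 19 glial calls had a value. RLE scaling moved the median of all genes by -0.22 for neurons minus Aqp4, -0.14 for neurons minus Mog, 0.13 for Pvalb minus excitatory, 0.11 for Sst minus excitatory and -0.11 for striatal projection minus Pvalb. Within a pool none of the 7 calls between neuron classes was kept, with fewer sums in each fit, and 10 of 19 glial calls were kept in pool S40327. Signs turned in pool S40325 for Cntnap5b in Sst minus excitatory (0.77) and Cntnap5a in striatal projection minus Sst (0.087), and for Cntnap5a by element position in Sst or Pvalb nuclei (0.0086); the cause was not tested.

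Counts of called genes moved by over 1.5 times as follows. With DESeq2 they were 1383 for striatal projection minus excitatory, 2176 minus Sst and 2335 minus Pvalb, 1043 for Sst minus Pvalb, 1487 for Sst minus excitatory, 1831 for Pvalb minus excitatory, 7316 for neurons minus Mog, 5276 for Aqp4 minus Mog, 83 for element position and 279 for pool. Sums by treatment label gave 358 for striatal projection minus excitatory. Without the replicate block Sst minus Pvalb gave 749 and Aqp4 minus Mog 4220. Sums of at least 5 nuclei gave 71 for Sst minus Pvalb, 485 for Sst minus excitatory, 469 for Pvalb minus excitatory and 2557 for neurons minus Mog. Thinned nuclei gave 505 for Sst minus excitatory and 633 for Pvalb minus excitatory. No low-count filter gave 5 for pool. Within pool S40325, the comparisons of striatal projection with excitatory, Sst and Pvalb, Sst with Pvalb and excitatory, and Pvalb with excitatory nuclei gave 10, 143, 85, 15, 40 and 34. In pool S40327 they gave 35, 281, 93, 8, 47 and 30, and neurons minus Aqp4, neurons minus Mog and Aqp4 minus Mog gave 1755, 2241 and 704. In pool S40317 Pvalb minus excitatory gave 50.

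Leaving out 1 construct gave 523 to 722, 962 to 1102, 1018 to 1211, 123 to 191, 627 to 774 and 784 to 1024 calls in the 6 neuron comparisons in the order above. It gave 4519 to 5408 for neurons minus Aqp4, 3752 to 4555 for neurons minus Mog, 1566 to 1827 for Aqp4 minus Mog, and 0 for position and pool. With nuclei of at least 2000 genes no glial value could be had.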

Other observations

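Nuclei outside the classes also held reads of these genes. In the 117 nuclei of no class, Nrxn3 measured 498 CPM with a read in 69.2% of nuclei, and Cntnap2 226 CPM with a read in 57.3%. In the 92 nuclei of more than 1 class, Nrxn3 measured 470 CPM with a read in 82.6%, and Cntnap4 54.8 CPM with a read in 21.7%.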
